A study of Mus musculus with 13 samples.

Results

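Signal of the transcription factor Myf6 on chromatin was compared between mouse embryonic fibroblasts that made Myf6 in the presence of 3 small molecules, Forskolin, RepSox and CHIR99021 (F/R/C), and fibroblasts that made Myf6 without them. Of the 13 libraries of the series, 4 enter the comparison, 2 of cells with Myf6 and the compounds (+Myf6+F/R/C) and 2 of cells with Myf6 alone (+Myf6). Peaks of these 4 libraries on chromosomes 1 to 19 were merged wherever their intervals shared 1 bp, which gave 67984 regions. The 10485 regions with a peak in all 4 lists were compared, while 8526 regions were in 3 lists, 13262 in 2 and 35711 in 1.

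Myf6, also called MRF4, belongs to the myogenic basic helix-loop-helix factors, which pair with E proteins, bind E-box sequences and drive fibroblasts towards muscle when they are made in excess. Forskolin activates adenylyl cyclase and so raises cyclic AMP, RepSox inhibits the type I receptor of TGF-β, and CHIR99021 inhibits the kinase GSK3, which stabilises β-catenin. Cyclic AMP, TGF-β and Wnt signals all act on muscle progenitors, and TGF-β is known to hold back muscle differentiation.

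The cells came from mice that combine Pax7-CreERT2 with Rosa26-LSL-tdTomato and CAG-rtTA3, whose rtTA3 transactivator acts only with doxycycline. They carried a lentivirus in which a TRE promoter drives mouse Myf6 with an HA tag, so the signal is that of overexpressed, tagged Myf6 and not of the cells' own protein. Both treatments lasted 24 h in iMPC medium, a serum-containing medium with bFGF, and both included 2 µg/mL doxycycline. The treatments differed by 5 µM Forskolin, 5 µM RepSox and 3 µM CHIR99021, always given together, so the 3 compounds cannot be told apart. Tagged Myf6 was located by CUT&RUN, in which an antibody, here against HA, guides a nuclease to cut out the DNA around the bound protein. The 8 libraries used as controls were 2 HA libraries of cells without doxycycline and the 6 IgG libraries of the series, and 1 library of H3K27me3, the mark of Polycomb repression, came from +Myf6+F/R/C cells. No library of cells with the compounds but without Myf6 was analysed here. The lists hold peaks only, so fibroblast identity and the level of Myf6 itself could not be checked, and more binding per cell cannot be told apart from more cells with Myf6.

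The value compared is the summit pileup, the number of fragments over the highest point of a peak, divided by the depth of its library and set to the mean depth of the 4 libraries, 44.0 fragments per 10 kb. Depth was 42.4 and 30.6 fragments per 10 kb in +Myf6 replicates 1 and 2, and 61.9 and 40.9 in +Myf6+F/R/C replicates 1 and 2. The libraries with the compounds were thus the deeper ones within each replicate number. At the 10485 regions the median pileup before scaling was 14 and 12 fragments without the compounds and 20 and 15 with them. The weakest regions reached lower in one library than in the others, with a 1st percentile of scaled pileup of 5.68 in +Myf6+F/R/C replicate 1 and 6.22 to 7.52 in the other three. This scaling gives every library the same mean, so a change in total Myf6 binding would not appear.

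Across the regions found in all 4 lists, Myf6 signal with the compounds was close to that without them. The median scaled pileup was 14.5 and 17.3 fragments in +Myf6 replicates 1 and 2, and 14.2 and 16.1 in +Myf6+F/R/C replicates 1 and 2. In both treatments replicate 2 lay above replicate 1, and the treatments overlapped. On the log2 scale the library medians were 4.01 ± 0.12 with the compounds and 4.07 ± 0.17 without (mean ± SD, n = 2 each), a difference of -0.061. An exact two-sided permutation test over the 4 libraries gave p = 0.667, where the smallest p the design allows is 0.33.

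Within a replicate number, the typical region differed little. The median log2 ratio of +Myf6+F/R/C over +Myf6 was -0.07 in replicate 1, with quartiles of -0.37 and 0.21, and -0.07 in replicate 2, with quartiles of -0.39 and 0.25. Both correspond to about 0.95 times the signal. The ratio of replicate 2 over replicate 1 was further from 0, at 0.20 within +Myf6 and 0.21 within +Myf6+F/R/C. Ratios between treatments spread over regions with an SD of 0.44 and 0.48 in replicates 1 and 2, and the median counting error of a single ratio was 0.51 and 0.57. The ratios include a pseudocount of 1, which narrows their spread, and the counting error does not, so these values cannot be compared directly. The regions had to have a peak in all 4 lists, and the part of that selection in the spread was not tested. Medians by chromosome ran from -0.11 to -0.02 in replicate 1 and from -0.10 to -0.01 in replicate 2, so no chromosome lay above 0 in either.

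**Figure D1:**
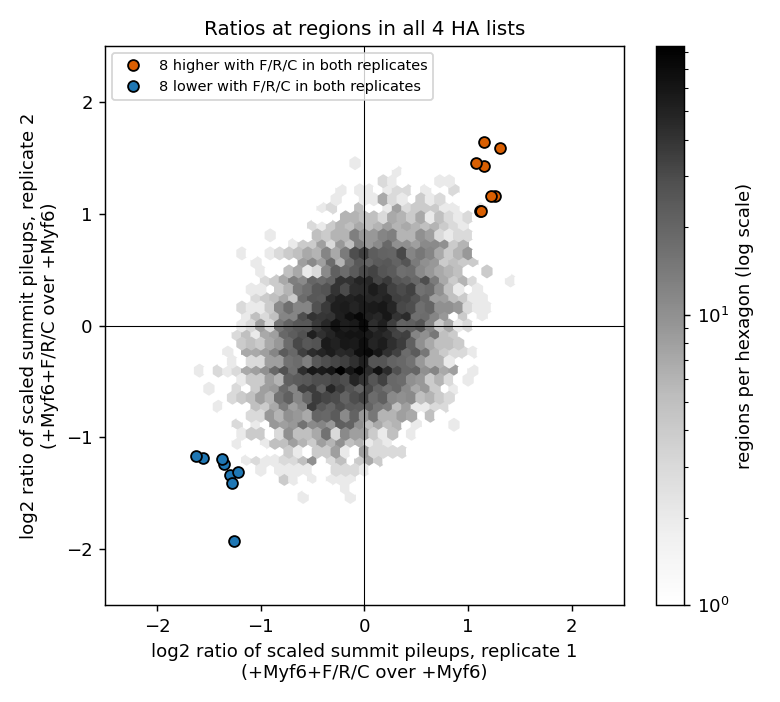
Log2 ratio of scaled summit pileups, +Myf6+F/R/C over +Myf6, in replicate 1 (x axis) and replicate 2 (y axis) for 10485 regions, as hexagons shaded by the number of regions on a log scale. Most regions lie around 0 on both axes, and the named 8 higher (orange) and 8 lower regions (blue) lie at the 2 ends of the diagonal.

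No region passed the main test, which has no term for the replicate number. The difference between replicates, a median log2 ratio of 0.20 within +Myf6 and 0.21 within +Myf6+F/R/C, therefore stayed in its error. A fit with a replicate term called regions in both directions and is given with the processing alternatives. With limma without the term, on log2 scaled pileups and Benjamini-Hochberg adjustment over all 10485 regions, 0 were higher (0% called) and 0 lower (0% called) at an adjusted p under 0.05, and the lowest adjusted p was 0.316. At an unadjusted p under 0.05 limma gave 275 regions higher (2.62%) and 471 lower (4.49%). With the libraries scaled instead to the median of ratios over these regions, the same counts were 523 and 436 of 10485. The balance of directions thus depends on the scaling. The median 95% confidence interval of a region reached 0.72 to either side on the log2 scale, or 1.64-fold, in this fit. An exact binomial test of the 2 pileups of a replicate number, which compares those libraries and not the treatments, called 1 region higher (0.00954%) and 3 lower (0.0286%) in replicate 1. In replicate 2 it called 0 higher (0%) and 13 lower (0.124%), and no region was called in both numbers.

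Regions that differed the same way in both replicates were counted without a call. With the compounds 2492 regions (23.8%) were higher in both replicates, 3908 (37.3%) were lower in both, and 4085 (39.0%) went opposite ways. At 1451 regions (13.8%) both libraries with the compounds were above both without, and at 2325 (22.2%) both were below. Differences of at least 1.5-fold in both replicates were found at 174 regions in the higher direction (1.66%) and 358 in the lower (3.41%). Differences of at least 2-fold in both were found at 10 (0.0954%) and 21 (0.2%). Large changes in both replicates thus made up a very small share of the regions with a peak in every list. A region whose peak was missing from any list was not counted, so the share of large changes among all regions cannot be read from this. A peak in both lists with the compounds and in neither list without them was found at 2913 regions. The reverse was found at 1668 regions. The libraries with the compounds were the deeper ones, and the part of depth in these numbers was not tested.

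Over the 10485 regions the ratio of replicate 1 and the ratio of replicate 2 had a Pearson r of 0.32 and a Spearman rho of 0.31. The ratios share no library, but they share the regions and thereby their strength, width and base composition. When regions were picked in one replicate and read in the other, the direction was the same for most. The highest 5% in replicate 1 (537 regions) had a median log2 ratio of 0.27 in replicate 2, a 1.21-fold difference, and 69.6% of them were above 0, against 43.7% of all regions. The lowest 5% (525 regions) had a median of -0.39 in replicate 2, and 19.2% were above 0. Picked in replicate 2 and read in replicate 1, the highest 530 regions had a median of 0.26 with 71.3% above 0, and the lowest 538 had a median of -0.34 with 18.8% above 0. Both picks gave smaller ratios in the replicate that did not choose them, where the medians in the choosing replicate were 0.78 and -0.94 for replicate 1.

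The H3K27me3 mark was counted in the same picks. Of the highest 5% in replicate 1, 24.6% (132 of 537) had an H3K27me3 peak, and of the highest 5% in replicate 2, 26.0% (138 of 530). Of all 10485 regions 39.95% (4189) had one. The regions with the lowest ratios had shares of 37.0 and 32.2%. The differences between shares were not tested, since the H3K27me3 library has no replicate and was made from cells with the compounds only.

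The position of a region in the order of strength went with its ratio, and strong regions had higher ratios than weak ones. Of the 7608 regions without a peak in any of the 8 control lists, the weakest 761 by mean scaled pileup (6.30 to 10.2 fragments) had median log2 ratios of -0.20 and -0.14 in replicates 1 and 2. The strongest 761 (22.9 to 51.5 fragments) had 0.04 and 0.11. The median turned positive at the last decile of the order in replicate 1 and one decile earlier in replicate 2. With all 10485 regions ranked by the pileups of replicate 2 alone, the ratio of replicate 1 went from -0.19 in the weakest decile to 0.04 in the strongest. Ranked by replicate 1, the ratio of replicate 2 went from -0.18 to 0.12. In the authors' fold enrichment this order was not seen. That fold divides the summit pileup by the expected pileup, with 1 added to each and no scaling for depth. Its median log2 ratios in the same regions without a control peak were 0.05 and 0.02 in the weakest decile and -0.02 and -0.12 in the strongest. The part of depth in the fold was not tested.

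This contrast was also taken within each library, where the depth scaling cancels apart from the pseudocount. The log2 pileup of the strongest decile exceeded that of the weakest by 1.59 and 1.56 in +Myf6 replicates 1 and 2, and by 1.84 and 1.73 in +Myf6+F/R/C replicates 1 and 2. Both libraries with the compounds lay above both without. The means were 1.78 ± 0.078 and 1.57 ± 0.020 (SD, n = 2 each), a difference of 0.21 with an exact permutation p of 0.33, the smallest the design allows. Without the regions that have a control peak the contrast was 1.48 and 1.36 without the compounds and 1.59 and 1.49 with them, a difference of 0.13 (exact permutation p = 0.33). In the authors' fold, where depth does not cancel, the same contrast had the opposite direction. It was 0.48 and 0.47 without the compounds and 0.45 and 0.36 with them, a difference of -0.067 (exact permutation p = 0.33). A weak region had to reach the peak threshold in all 4 lists to be counted, and the lowest scaled pileups, given above, were those of the deepest library. The part of this selection in the trend was not tested.

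**Figure D2:**
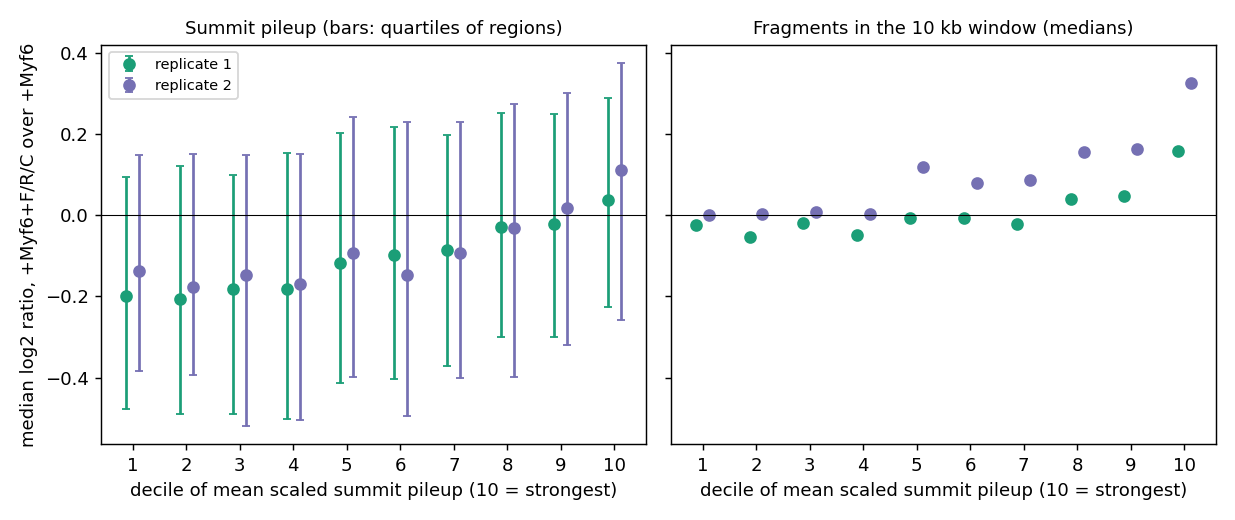
Median log2 ratio, +Myf6+F/R/C over +Myf6, in deciles of the 7608 regions without a control peak, ordered by mean scaled summit pileup. The left panel shows summit pileups with quartiles of regions as bars, from -0.20 and -0.14 in the weakest decile to 0.04 and 0.11 in the strongest, and the right panel shows fragments in the 10 kb window, which reach 0.16 and 0.32 in the strongest decile.

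The 10 kb around the regions showed the same order by strength as their scaled summits. The expected pileup of each peak gives the number of fragments in the 10 kb around it, which cannot be seen where it is below the library's mean. Over all 10485 regions the median log2 ratio of this number between the treatments was 0.02 in replicate 1 and 0.10 in replicate 2, and after subtraction of the fragments at the summit 0.05 and 0.15. In the weakest decile of the regions without a control peak it was -0.02 and 0.00, and in the strongest decile 0.16 and 0.32. A window below the mean in both libraries of a replicate number gives 0.00, and the part of such windows in the weakest decile was not tested. Set against the library's mean, the window of the strongest decile stood at 1.94 and 1.96 (log2) in the +Myf6 libraries and at 2.15 and 2.26 in the +Myf6+F/R/C libraries. The strongest decile exceeded the weakest by 1.62 and 1.57 in the +Myf6 libraries and by 1.89 and 1.89 in the +Myf6+F/R/C libraries. That difference of 0.29 had an exact permutation p of 0.33, and the libraries of the treatments did not overlap. Median peak widths at the 10485 regions were 504 and 462 bp in replicates 1 and 2 with the compounds and 424 and 407 bp without. The libraries with the compounds were also the deeper ones, and the part of depth in the widths was not tested.

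The median distance between the summits of a region in the 2 treatments was 61 bp in replicate 1 and 81 bp in replicate 2. Between replicates it was 76 bp for +Myf6 and 63 bp for +Myf6+F/R/C. The distance between treatments was below both distances between replicates in replicate 1 and above both in replicate 2.

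Signal in the absence of doxycycline separated regions with different ratios. The 619 regions found in each of the 2 uninduced HA lists, and in no IgG list, had median log2 ratios of 0.12 and 0.16 in replicates 1 and 2, and the 1642 regions in 1 uninduced HA list and no IgG list had 0.00 and 0.02. The 7608 regions without a control peak had -0.10 and -0.09. The first class was stronger, with a median scaled pileup of 25.3 fragments against 14.7. Among regions of 20 to 30 fragments, 306 of that class had medians of 0.18 and 0.16, and 1169 without a control peak had 0.01 and 0.04. In the libraries one by one, the class exceeded the regions without control peak in this range by 0.06 and 0.00 (log2) in the +Myf6 libraries and by 0.19 and 0.12 in the +Myf6+F/R/C libraries. The difference of 0.12 had an exact permutation p of 0.33. At 30 to 40 fragments the classes were closer, with 0.09 and 0.14 for 140 regions of the class and 0.04 and 0.16 for 153 without a control peak, and the order was the other way in replicate 2. In the authors' fold, over all strengths, the class had median log2 ratios of 0.06 and -0.03 and the regions without a control peak 0.03 and -0.06, and the difference by library was 0.035 (exact permutation p = 0.667). The uninduced HA libraries had no doxycycline, and the part of such signal in these ratios was not tested.

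Regions that also carry IgG peaks lay on the opposite side in scaled pileup. The 413 regions with a peak in some IgG list but not in all 8 controls had median ratios of -0.15 and -0.20. The 203 regions with a peak in all 8 control lists had -0.28 and -0.48. In the authors' fold the 413 regions had 0.06 and -0.06 and the 203 had -0.005 and -0.11. Regions without a control peak had 0.03 and -0.06 in that measure. In the 13 lists no pileup was above 2 times the fragment length of its library, and in the 4 HA lists the highest pileups were 320, 321, 325 and 341 fragments against limits of 322, 322, 328 and 344. Regions near that limit were alike before scaling and lower after it in the deeper libraries. The 203 regions had median pileups of 24, 24, 31 and 24 fragments before scaling (+Myf6 replicates 1 and 2, then +Myf6+F/R/C replicates 1 and 2), far below the limit, and the part of the limit in their ratio was not tested.

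Polycomb-marked regions differed little from the others. Median ratios were -0.09 and -0.09 at the 4189 regions with an H3K27me3 peak and -0.05 and -0.05 at the 6296 without. Among regions without a control peak, those with the mark (2643) had -0.12 and -0.09 and those without (4965) -0.08 and -0.09. In the libraries one by one, marked regions differed from unmarked ones by -0.10 and 0.12 (log2 pileup) in the +Myf6 libraries and by -0.15 and 0.00 in the +Myf6+F/R/C libraries. The replicates differed more than the treatments did, and the difference of -0.084 between treatments had an exact permutation p of 0.667.

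**Figure D3:**
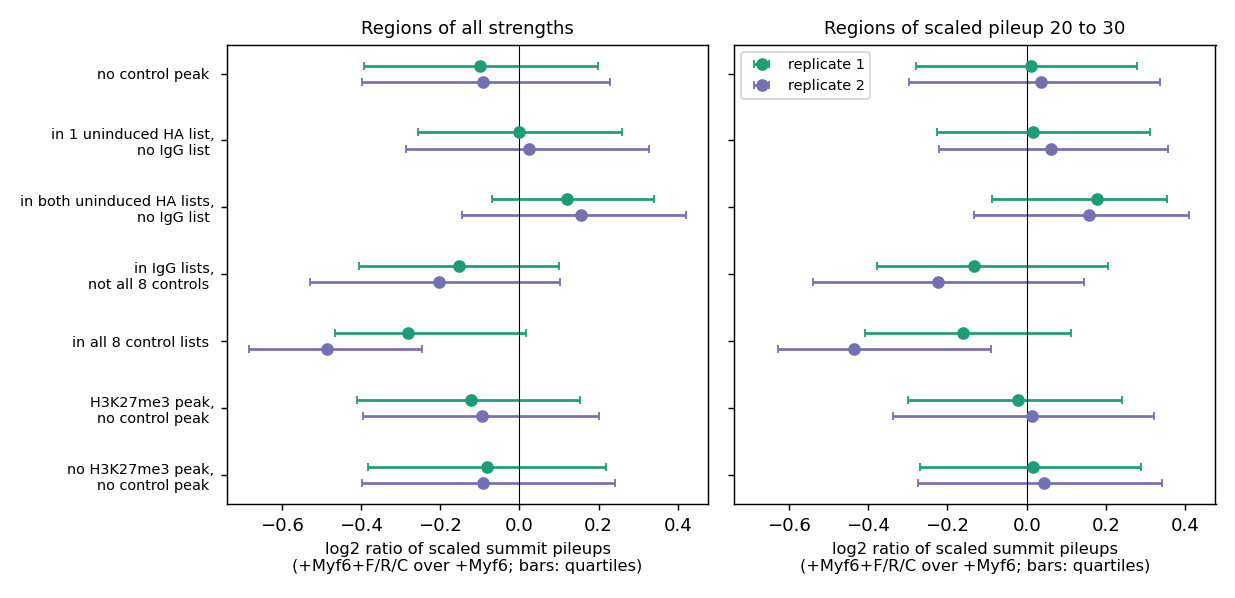
Median log2 ratio of scaled summit pileups, +Myf6+F/R/C over +Myf6, with quartiles of regions as bars, by class of region in replicates 1 and 2, for all strengths (left) and for mean scaled pileups of 20 to 30 (right). At all strengths, the medians of the class in both uninduced HA lists lie above 0 (0.12 and 0.16), with bars that reach below 0. The medians of regions in all 8 control lists lie lowest (-0.28 and -0.48).

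The 8 regions with the largest excess with the compounds in both replicates are given as values without a call. They were chosen for their ratios in these same libraries, so a gap between the treatments at them is largely a result of the choice. Coordinates are those of GRCm39. At chr3:81211173-81212588, the summit held 8 and 5 fragments in +Myf6 replicates 1 and 2 and 31 and 22 in +Myf6+F/R/C replicates 1 and 2. Scaled for depth these were 8.29 and 7.19 against 22.0 and 23.6. The log2 difference was 1.45 with a standard error of 0.38, and limma gave an adjusted p of 0.387. The region lies in none of the control lists, and its 10 kb window was higher too, by 1.34 and 1.97.

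The region at chr9:116751581-116752226 held scaled pileups of 9.33 and 8.63 without the compounds and 22.0 and 29.0 with them, with a peak in 1 control list. At chr17:21721518-21722273 they were 8.29 and 12.9 against 21.3 and 30.1, with no control peak. At chr10:5060582-5061354 they were 9.33 and 5.75 against 22.0 and 17.2, with a peak in 1 control list. In each of these the weaker library with the compounds was above the stronger one without. The same held at 13.8% of all 10485 regions. The strongest of the 8, chr5:97496383-97497081, had scaled pileups of 18.7 and 30.2 without the compounds and 41.9 and 62.3 with them (18, 21, 59 and 58 fragments before scaling). Both uninduced HA lists also had this peak, and its log2 difference was 1.07 with a standard error of 0.27 (limma, adjusted p = 0.316). The other 3 were chr7:18909346-18909876, chr3:56334665-56335168 and chr17:84180463-84181562, and the last was the only one of the 8 with an H3K27me3 peak. Log2 ratios of the 8 ran from 1.07 to 1.31 in replicate 1 and from 1.02 to 1.64 in replicate 2, and all 8 windows were higher in both replicates (0.49 to 1.97). In the authors' fold the log2 differences of the 8 were smaller, 0.51 to 1.06, against 1.07 to 1.45 in summit pileup.

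The 8 regions with the largest deficit with the compounds were chosen in the same way, so their gap between the treatments is largely a result of the choice. Over all 10485 regions, 22.2% had both libraries with the compounds below both without. Limma without a replicate term called none of the 8. At chr3:141968971-141969507 the summit held 21 and 19 fragments without the compounds and 12 and 6 with them. Scaled, these were 21.8 and 27.3 against 8.52 and 6.45. The log2 difference of -1.59 had a standard error of 0.38 and a limma adjusted p of 0.316. It was the lowest log2 difference of the 8, at a region with no control peak. The log2 ratio of its window was -0.07 in replicate 1 and -0.98 in replicate 2.

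At chr3:57033419-57034030 the scaled pileups were 25.9 and 25.9 without the compounds and 9.94 and 9.67 with them, the closest replicates among the 8. At chr19:31899079-31899779 they were 18.7 and 33.1 against 5.68 and 14.0, and at chr13:24749039-24749893 21.8 and 23.0 against 6.39 and 9.67. The last had an H3K27me3 peak and a peak in 1 control list. The region at chr12:69205962-69206465 (39.4 and 27.3 against 15.6 and 9.67) had peaks in 7 of the 8 control lists and an H3K27me3 peak, so signal there was also present without the tagged factor or the HA antibody. The other 3 were chr11:57623440-57623851, chr6:128029911-128030724 and chr2:117561638-117562534. Log2 ratios of the 8 ran from -1.62 to -1.22 in replicate 1 and from -1.93 to -1.17 in replicate 2. All 8 windows were lower in both replicates, from -1.23 to -0.07. In the authors' fold the log2 differences of the 8 were -1.19 to -0.57, against -1.59 to -1.26 in summit pileup. Without +Myf6+F/R/C replicate 1 the difference at chr2:117561638-117562534 went from -1.29 to -0.80, and at chr19:31899079-31899779 from -1.37 to -0.79.

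**Figure D4:**
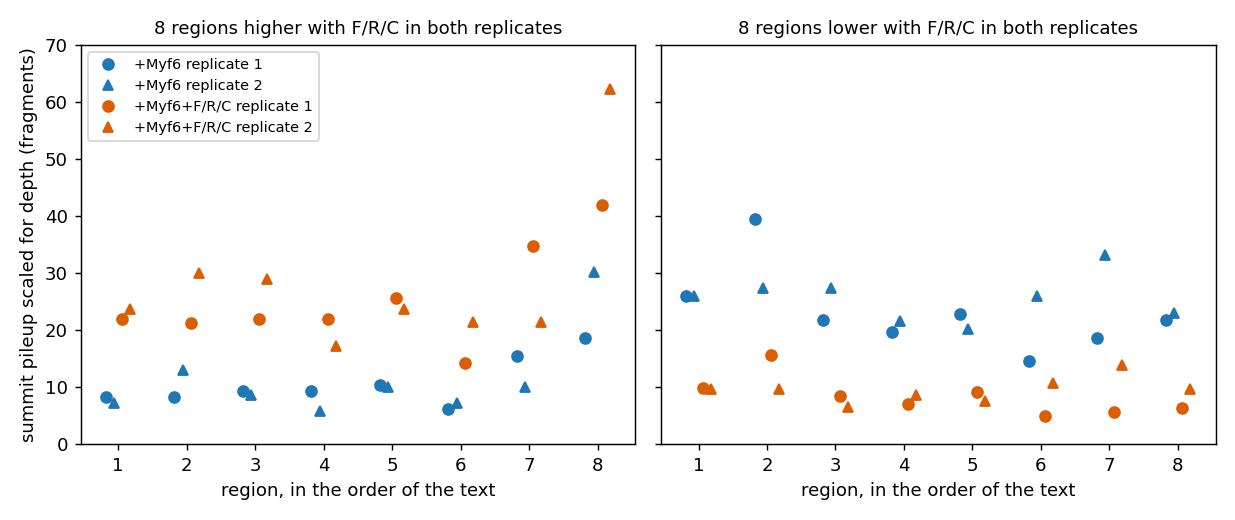
Scaled summit pileup in fragments (y axis, linear from 0) of the 8 higher regions (left) and the 8 lower regions (right) in each of the 4 libraries, with circles for replicate 1 and triangles for replicate 2. The regions are numbered, left panel first, as chr3:81211173, chr17:21721518, chr9:116751581, chr10:5060582, chr7:18909346, chr3:56334665, chr17:84180463, chr5:97496383, and right panel chr3:57033419, chr12:69205962, chr3:141968971, chr11:57623440, chr6:128029911, chr2:117561638, chr19:31899079, chr13:24749039; in all 16 the treatments do not overlap, and the regions were chosen for their ratios.

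The strongest regions of all also had signal in every control library. The 8 with the highest mean scaled pileup lay on chromosome 2 between 98492526 and 98497739 (3 regions), on chromosome 9 between 3000026 and 3006916 (3 regions), at chr12:3159758-3160236 and at chr6:103625906-103626345. All 8 had peaks in all 8 control lists and an H3K27me3 peak. At chr2:98496571-98497739 the pileups were 320, 321, 325 and 341 fragments, in the order given above, which are the highest of each list. Log2 differences of the 8 were -0.58 to -0.43, with limma adjusted p-values of 0.563 to 0.725. In the authors' fold they were -0.07 to 0.04, and 2 of the 8 turned positive.

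Among regions without a control peak, the 8 strongest, chosen after their values were seen, had log2 differences above 0 in scaled summit pileup, and 7 of them had differences below 0 in the authors' fold enrichment (-0.27 to 0.21 over the 8). The strongest, chr14:25978450-25980068, had scaled pileups of 48.7 and 48.9 without the compounds and 52.5 and 55.9 with them. At chr2:78019836-78020787 they were 28.0 and 44.6 against 53.2 and 61.2, a log2 difference of 0.68 with a standard error of 0.25 (limma, adjusted p = 0.543). At chr14:86773426-86774589 they were 46.6 and 38.8 against 57.5 and 53.7. These 3 regions had no overlap between the treatments. At chr9:94449483-94450680, by contrast, the values were 41.4 and 54.7 against 46.8 and 54.8, and the treatments overlapped. The remaining 4 were chr7:67034728-67035919, chr11:6431095-6432144, chr18:10735269-10736732 and chr2:49801249-49802048. Log2 differences of the 8 ran from 0.03 to 0.68, and limma's adjusted p-values were 0.543 to 0.995. At 4 of the 8 both libraries with the compounds were above both without. Of all 10485 regions 13.8% were apart in this direction and 22.2% in the other, and the difference in shares was not tested.

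Regions missing from a single list gave a further view, with the ratio taken in the replicate number whose lists were both present. A +Myf6 list was the missing one at 5007 regions and a +Myf6+F/R/C list at 3519. Where +Myf6 replicate 1 (2442 regions) or replicate 2 (2565 regions) lacked the peak, the median log2 ratio in the other replicate number was -0.05 and -0.03. Where +Myf6+F/R/C replicate 1 (1051 regions) or replicate 2 (2468 regions) lacked it, the median was -0.23 and -0.23. A peak absent with the compounds in one replicate thus went with a lower ratio in the other. The list with the fewest missing regions was the deepest one, +Myf6+F/R/C replicate 1 (61.9 fragments per 10 kb), and the part of depth in these counts was not tested.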

How the data were processed

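Peaks of each CUT&RUN library were deposited by the authors as narrowPeak lists, 1 per library, with a fold enrichment (ratio of summit pileup to expected pileup) and −log10 p-values and q-values. The lowest −log10 q of the 4 HA lists was 1.30 to 1.31 in the deposited files. GRCm39, MACS2, deepTools and DiffBind are named, without versions, per the submitters' processing notes, and the aligner's name was not given in the sources used here. Drosophila spike-in nuclei were added per the labels' protocols, and spike-in counts were not used here. The deposited summit offset located each pileup.

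Whole-number summit pileups and expected pileups were recovered from the fold and the −log10 p-value with a tolerance of 0.002, and 1 peak per HA list without a solution was left out. The narrowest peak gave the fragment length (161, 161, 164 and 172 bp) and the lowest expected pileup gave the depth. Log2 values used a pseudocount of 1 on the scaled pileup. Regions were tested with limma 3.58.1 (R 4.3.3; lmFit, eBayes with trend), two-sided, and library summaries with exact permutation tests (scipy 1.17.1). The scripts were tested on simulated data. Nothing in the labels says that replicates are separate cultures, so p-values measure only the spread between these samples, which may be technical. Members and lists were chosen with earlier results of these data known. Named regions were the 8 strongest, and the 8 higher and 8 lower past the adjusted threshold, filled up by the smaller of the 2 log2 ratios where fewer pass. The planned assignment to genes and search for motifs were not made: the gene table is of another genome build than the peaks, and no genome was used.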

Additional observations from a re-analysis of the deposited data

How the results depend on the processing

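The median log2 ratio over regions, -0.074, stayed negative under 14 alternatives (-0.131 to -0.0004) and turned positive at a mean scaled pileup of at least 20 (0.0347) and, chosen after seeing the data, at 12 or more in every library (0.0036). Without 1 library it ran from -0.1805 to 0.0337, positive without +Myf6 replicate 2 (0.028) or +Myf6+F/R/C replicate 1 (0.0337). Counts of called regions were 0 in both directions under every alternative that kept the 4 libraries and had no replicate block. Without 1 library limma called 0 to 2 regions higher and 0 to 4 lower, with the lone library assumed to vary like the other group. With the replicate number as a block, limma called 73 of the 10485 regions higher and 154 lower. Of the 154 lower ones 31 were in all 8 control lists, against 203 of all 10485 regions. All 16 named higher and lower regions passed limma with this block (highest adjusted p 0.0076 and 0.0018). They were chosen for their ratios within replicate numbers in the same libraries, which this fit tests, so their passing adds no support. The median stayed at -0.074. Libraries of 1 number also carry the same prefix in their names in both treatments, but the labels do not say that this marks a shared culture, batch or day, so the pairing is not established. Replicate differences of the treatments correlated over regions with r = 0.33, as the treatment ratios of the replicates did with r = 0.32.

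Of the named regions, the 8 higher and 8 lower kept their direction under every alternative run. They were chosen for large ratios and the alternatives reuse the same libraries, so the kept direction is no separate check. The authors' fold enrichment made 6 and 7 of them over 1.5 times smaller (0.51 to 1.06 and -1.19 to -0.57). It also reversed chr2:98496571 (0.0432), chr9:3000026 (0.0399), chr14:25978450 (-0.139), chr7:67034728 (-0.1641), chr9:94449483 (-0.2653), chr14:86773426 (-0.2392), chr11:6431095 (-0.1307), chr18:10735269 (-0.2268) and chr2:49801249 (-0.0938). Scaling by the lowest expected pileup (added) reversed chr2:49801249 (-0.0336). Leaving out +Myf6 replicate 1 or +Myf6+F/R/C replicate 2 reversed chr9:94449483 (-0.1076 and -0.0228), chr18:10735269 (-0.0778 and -0.1721) and chr2:49801249 (-0.1635 and -0.3677), whose highest values without 1 library were 0.2835, 0.3599 and 0.4200. The cause was not tested. The authors' fold by strength and class, and the range of 30 to 40 fragments, were added after seeing the data. The 2 libraries a group and pileups of 12 to 20 fragments limit what a region can show.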
